A study of Gallus gallus with 9 samples.

Results

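Gonadal primordial germ cells (PGCs) of the chicken were compared with EGK.X blastoderms across all genes. The members were the 3 PGC and the 3 EGK.X blastoderm libraries, chosen by their sample labels, or 6 of the 9 libraries of the series. The series held 24356 gene identifiers, of which 22698 had a count in any of the 9 libraries and were tested. Of these, 22354 had a count in the 6 libraries compared, and 344 had counts only in the other group, chicken embryonic fibroblasts (CEFs).

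All birds were White Leghorn chickens, and no group was treated. The PGCs came from the gonads of day 6 embryos (HH stage 28 in the Hamburger and Hamilton series). They were pulled from the dissociated gonads with magnetic beads against the surface antigen SSEA-1, and 484 to 684 gonads were pooled for a replicate. An EGK.X blastoderm is the embryo of a freshly laid egg, and each replicate pooled 10 of them, dissociated whole and not sorted. The CEFs were grown to passage 2 from the bodies of 5 embryos per replicate at the same stage as the PGCs. They entered the fit to share its estimate of the spread, and so also bore on the scaling and the set of genes tested. Each group had 3 biological replicates of total RNA, depleted of ribosomal RNA and sequenced as 150 bp paired ends. The sex of the pooled embryos is not given in the sources used here. Cell type, stage and isolation all differed between the PGCs and the blastoderms and cannot be told apart.

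PGCs are the embryonic founders of sperm and eggs. In birds they leave the epiblast of the early embryo, travel in the bloodstream and settle in the gonad, where they divide before the female cells enter meiosis and the male cells arrest. The EGK.X blastoderm is a disc of mostly uncommitted cells that divide fast, with an epiblast above and the first hypoblast cells below, and its cells can contribute to every tissue of the chick. Both kinds of cell keep some pluripotency factors, such as NANOG, that are low or absent in fibroblasts, and both pass their genome on to many descendants.

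Reads on genes numbered 60066862 to 67475925 per blastoderm library and 29512715 to 56255185 per PGC library, with PGC replicate 2 the shallowest. Of the records in a library, 33.8% to 36.2% lay outside annotated genes in the PGCs, against 26.6% to 27.8% in the blastoderms, and 4.60% to 5.10% against 9.46% to 10.1% had no alignment. The part of these shares in the results was not tested. The 3 PGC libraries resembled each other closely, with a median SD over 13637 genes of 0.11 on the log2 scale. EGK.X blastoderm replicate 3 stood apart from the other 2 blastoderm libraries. It lay over 2-fold above both of them in 631 of those 13637 genes and over 2-fold below both in 719, whereas no other of the 6 libraries left its own group in this way in more than 39 genes in either direction. The median SD among the blastoderms was 0.27. Without it the call of 13 listed genes changed, and the values of those named are given beside them.

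Levels are given as CPM, the counts of a gene scaled to the TMM-adjusted total of its library. Few genes that mark the cells are paired with names in the files. NANOG, a homeodomain factor of pluripotent and germ cells (GRCg6a chr1:75593243-75596024), was at 150.2, 146 and 140.4 CPM in the PGCs and at 683, 671 and 567 CPM in the blastoderms. In the CEFs its mean was 0.0133 CPM. Pou5f3, the chicken relative of mammalian OCT4 (chr17:823420-837030), was at 197, 207 and 157 CPM in the PGCs and 446, 594 and 620.5 CPM in the blastoderms, against a mean of 9.27 CPM in the CEFs. Both pluripotency factors were thus well counted in all 6 libraries. SYCP3, a component of the axis of meiotic chromosomes (chr1:55560638-55572432), was at 5.26, 5.61 and 4.68 CPM in the PGCs. The somatic, blood and endothelial markers could not be looked up by name, so the purity of the sorted cells was not assessed here.

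The PGC and blastoderm transcriptomes differed at 9500 genes, or 41.9% of those tested. These genes had an adjusted p under 0.05 and a change of more than 2-fold. In the PGCs, 5300 genes were higher (23.4%) and 4200 were lower (18.5%). Of the 9500 genes, 9318 had levels that did not overlap between the 3 PGC and the 3 blastoderm libraries. Across all genes tested, the 3 PGC values lay above the 3 blastoderm values in 33.4% and below them in 30.3%, or 63.7% in either direction. The median log2 fold change over all genes was 0.03, with quartiles of -1.04 and 1.48. In bulk RNA, a lower level in fewer cells of a type and less RNA per cell cannot be told apart. Without EGK.X replicate 3 the counts were 5322 higher and 4145 lower, and 8691 of the 9500 calls were shared.

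**Figure D1:**
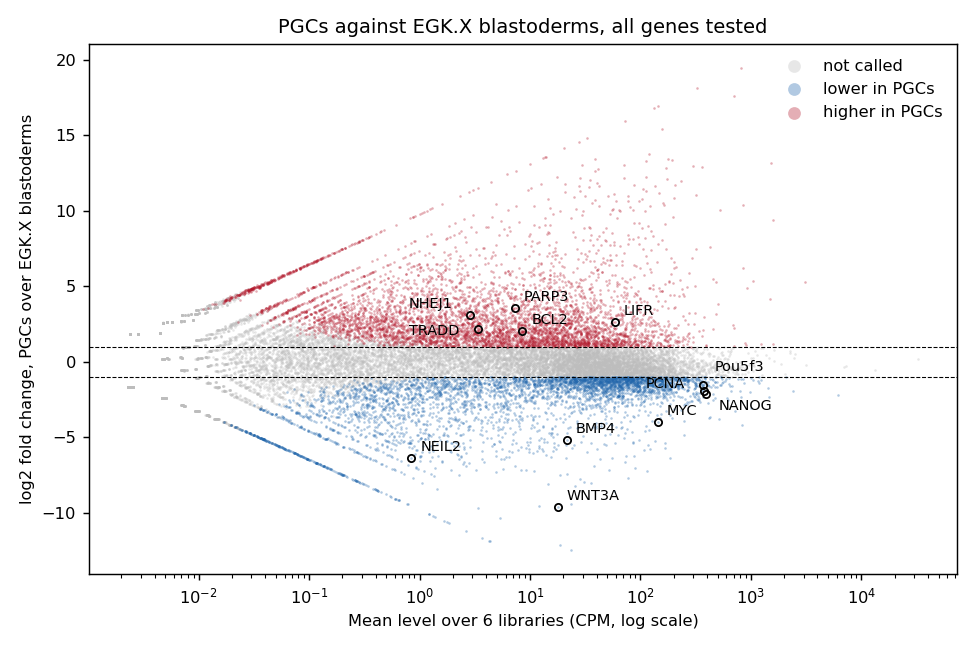
The log2 fold change of PGCs over EGK.X blastoderms (vertical axis) is plotted against the mean level over the 6 libraries in CPM (horizontal axis, log scale), with 1 point per gene, red for the 5300 genes higher in PGCs and blue for the 4200 lower, and 12 genes of the text circled. The dashed lines mark a 2-fold change, and the outermost rays at low levels are genes with 0 counts in 1 group, whose fitted fold change depends on the prior count.

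The share of higher and lower genes differed with the level of the transcript. Among the 4474 genes at a mean of 1 to 10 CPM, 38.0% were higher in the PGCs and 20.0% lower. Between 10 and 100 CPM the shares were close to each other, at 23.2% and 22.0% of 7056 genes. Above 100 CPM the order turned, with 276 genes higher (13.1%) and 614 lower (29.1%) of 2107, and the median log2 fold change there was -0.49. Genes above 100 CPM were thus more often lower in the PGCs, and those of 1 to 10 CPM more often higher.

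Large differences were more often in favour of the PGCs. More than 4-fold changes were found at 3457 genes higher and 1999 lower, and more than 32-fold changes at 798 and 500. Past 256-fold, 187 genes were higher in the PGCs and 50 lower. Fitted folds of this size can depend on a few counts in the lower group.

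**Figure D2:**
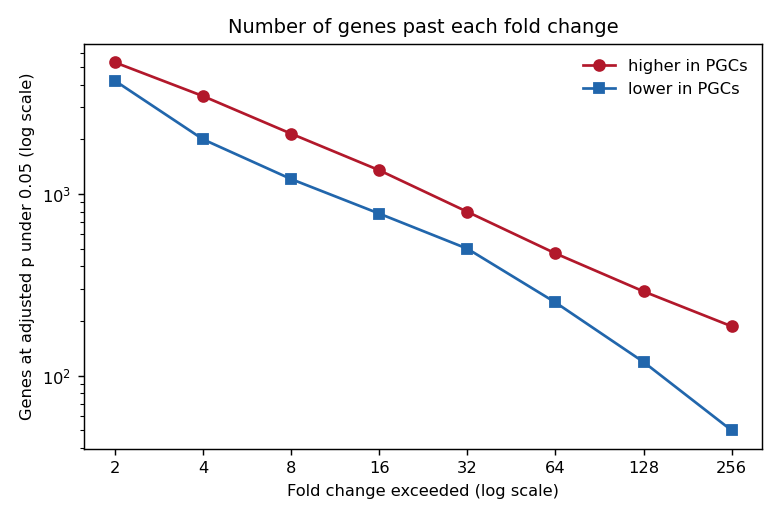
The number of genes at an adjusted p under 0.05 (vertical axis, log scale) is plotted against the fold change exceeded (horizontal axis, log scale), in red for genes higher in PGCs and in blue for genes lower. The red line runs above the blue line at every threshold, from 5300 against 4200 genes past 2-fold to 187 against 50 past 256-fold.

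Some genes were counted in 1 group and at or near 0 in the other. With a floor of at most 3 counts in each library of a group, 498 genes were over the floor in every PGC library and at the floor in the blastoderms. For 484 genes it was the reverse. Most of these genes were rare transcripts, since the median of the lowest count in the higher group was 11 for the first set and 10 for the second. The abundant ones were mainly on the side of the PGCs. In the first set, 76 genes had at least 100 counts in every PGC library and 27 had at least 1000. In the second set, the blastoderms reached 100 counts in every library for 27 genes and 1000 for 2. With all 6 libraries thinned to the smallest total, the sets held 811 and 416 genes. At full depth the CEFs were also at the floor for 268 and 279 genes of these sets. At 3 counts the floor is 0.0416 to 0.0809 CPM in these libraries. It is a chosen cutoff, so a gene at the floor is not shown to be absent. Intervals and floors cover counting error only.

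The 2 genes outside the lists with the smallest adjusted p in each direction were taken to show the extremes. ENSGALG00000002200 was at 384, 371 and 483 CPM in the PGCs, with 8, 12 and 5 counts in the blastoderm libraries (log2 fold change 11.71, SE 0.30, adjusted p = 1.35e-10). From the pooled counts it was 3435-fold higher (95% exact interval 2326 to 5308). ENSGALG00000005474 was at 615, 529 and 778 CPM against 18, 29 and 16 counts (log2 fold change 11.03, SE 0.28, adjusted p = 1.35e-10). Both had few counts outside the PGC libraries, with at most 29 in a blastoderm and 16 in a CEF library. In the other direction, ENSGALG00000004665 was at 45.7, 44.2 and 50.9 CPM in the blastoderms and gave 5, 2 and 4 counts in the PGCs (log2 fold change -9.42, SE 0.31, adjusted p = 4.67e-10). ENSGALG00000029596 was at 172, 151 and 142 CPM in the blastoderms, 0.512, 0.782 and 0.940 CPM in the PGCs (log2 fold change -7.71, SE 0.25, adjusted p = 4.67e-10). It was also present in the CEFs, where the levels were 49.6, 39.9 and 50.7 CPM. No table used here pairs these identifiers with a name.

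The counts of the PGCs were spread over slightly more genes, but the groups overlapped. The genes that together held 50% of a library's counts numbered 1010, 962 and 927 in the PGCs and 807, 855 and 946 in the blastoderms. The means were 966 ± 41.7 and 869 ± 70.6 (SD, n = 3), with a difference of 97.0 (two-sided exact permutation p = 0.2, where 3 against 3 cannot go below 0.1). At full depth, a mean of 20087 genes had a count in the PGCs and 19946.7 in the blastoderms. The groups overlapped in that number (exact permutation p = 0.7). With every library thinned to 29512715 counts in a single random draw, the means were 19711.7 in the PGCs and 19114.0 in the blastoderms. After thinning the groups did not overlap (exact permutation p = 0.1, the smallest possible).

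The named genes of the series fall into DNA repair, apoptosis and pluripotency, and 153 of the 154 were tested. OGG1, a glycosylase for oxidised guanine, had 0 counts in all 9 libraries. In the PGCs 13 of the 153 genes were higher and 38 lower, or 8.50% and 24.8%, against 23.4% and 18.5% of all genes tested. The median log2 fold change was -0.47, against 0.03 over all genes. The listed genes were mostly well expressed, and 126 of them lay above a mean of 10 CPM. Between 10 and 100 CPM the median was -0.42 for 91 listed genes and -0.13 for all 7056 genes of that level, and above 100 CPM it was -0.67 for 35 listed genes and -0.49 for all 2107. Of the 91, 6 were higher and 22 lower, against 23.2% and 22.0% of all genes of that level. Of the 35, 0 were higher and 13 lower, against 13.1% and 29.1%. With library size alone as the scaling, the median of all genes moved up by 0.18, and the medians of the lists moved with it.

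**Figure D3:**
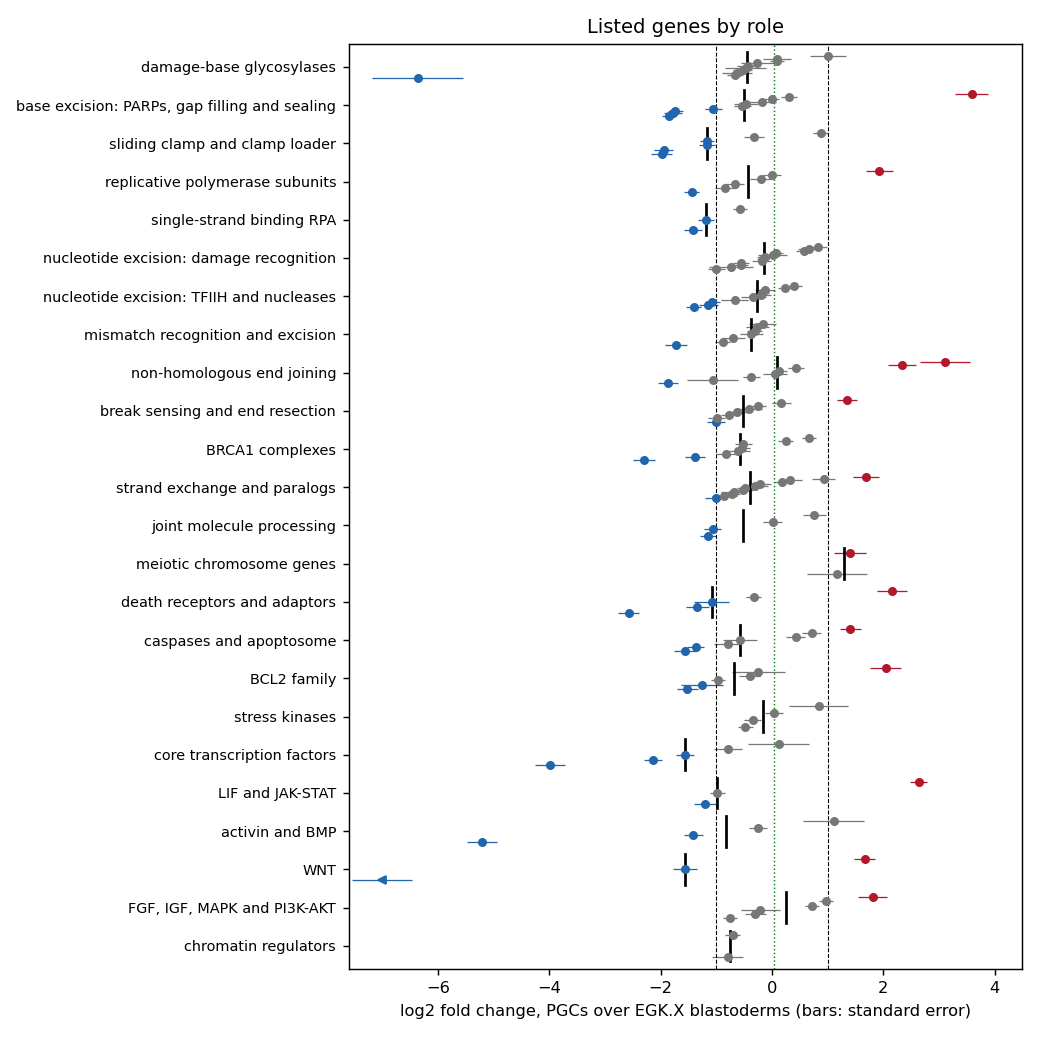
The log2 fold change of PGCs over EGK.X blastoderms (horizontal axis, bars show the standard error) is plotted for 151 listed genes grouped by role (vertical axis), in red where higher, blue where lower and grey where not called, with a black tick at each group's median, dashed lines at 2-fold and a dotted green line at the median of all genes. INHBA and IGF1 are left out for lack of counts, the arrow for WNT3A stands for -9.65, and the fitted value of NEIL2 rests on 0 to 3 counts in the PGC libraries.

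DNA repair genes were more often lower than higher in the PGCs. Of 106 genes tested, 23 were lower and 7 higher, or 21.7% and 6.60%, against 18.5% and 23.4% of all genes. The share of lower genes was thus near that of all genes, and the share of higher genes was smaller. The median log2 fold change was -0.42. The 3 PGC values lay below the 3 blastoderm values in 58 genes and above them in 21, against 30.3% and 33.4% of all genes. Among the lower genes were the clamp PCNA, 3 subunits of its loader, 2 of RPA and 1 of polymerase delta, which repair shares with replication. The 7 higher genes were PARP3, POLE4, XRCC4, NHEJ1, ATM, RAD51B and SYCP3. With library size alone, 11 were higher and 14 lower. Without EGK.X replicate 3, they numbered 9 and 23.

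Glycosylases start base excision repair by clipping a damaged base from the DNA. Of 10 measured, only NEIL2 was called, against 41.9% of all genes. NEIL2, which removes oxidised pyrimidines (chr3:107354453-107358580), gave 106, 108 and 130 counts in the blastoderms, 0, 0 and 3 counts in the PGCs and 0 counts in the CEFs. The PGCs were at the floor, so the level was at least 28.7-fold lower than in the blastoderms (edgeR adjusted p = 7.54e-05). The other 9 ranged from -0.67 for TDG, which removes thymine and uracil opposite guanine, to 1.00 for NEIL1, another enzyme for oxidised bases. NEIL1 was at 7.94, 7.82 and 7.59 CPM in the PGCs and 3.20, 2.73 and 5.76 CPM in the blastoderms, without overlap, and lay just under the 2-fold limit (adjusted p = 0.0198). It was called higher in 6 of 17 alternative fits, among them DESeq2 and the fit without EGK.X replicate 3 (log2 fold change 1.39, edgeR adjusted p = 0.00115). UNG, the uracil glycosylase, was at 121, 122 and 110.4 CPM against 120.2, 107 and 105 CPM, with overlapping groups.

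After the base is gone, the gap is filled and sealed. Of the 10 genes of this step, 4 were lower and 1 higher, against 18.5% and 23.4% of all genes. FEN1, the flap nuclease that trims the displaced strand (chr5:488088-490498), was at 60.3, 65.9 and 65.3 CPM in the PGCs and 224, 227 and 237 CPM in the blastoderms (log2 fold change -1.85, SE 0.12, adjusted p = 1.24e-07). POLB, the gap-filling polymerase, was at 12.9, 11.6 and 13.6 CPM against 47.8, 45.8 and 37.0 CPM (log2 fold change -1.77, SE 0.16, adjusted p = 1.95e-06). LIG3, a ligase that closes the nick, was at 47.7, 50.8 and 54.5 CPM against 188, 180.2 and 142 CPM (log2 fold change -1.74, SE 0.14, adjusted p = 5.99e-07). POLL, another polymerase of this group, was at 0.30 on the log2 scale and was not called. FEN1, POLB and LIG3 were lower by a like amount. In none of these 3 did the groups overlap. Across all genes, 30.3% were below without overlap, and of the 9500 called genes 9318 did not overlap. HMGB1, an abundant chromatin protein, was lower by less (log2 fold change -1.05) and was not called with library size alone or without EGK.X replicate 1.

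PARP3 went the other way. It adds ADP-ribose at strand breaks (chr12:3551260-3554379), and was at 11.5, 12.8 and 16.1 CPM in the PGCs, 0.803, 1.44 and 1.12 CPM in the blastoderms and a mean of 12.5 CPM in the CEFs (log2 fold change 3.58, SE 0.30, adjusted p = 8.72e-07). The blastoderms were the low group of the 3. PARP1, the main sensor of single-strand breaks, had a log2 fold change of -0.01 (adjusted p = 0.982), and LIG1, the replicative ligase, one of -0.53, so neither was called.

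The sliding clamp PCNA encircles DNA and holds the polymerase in place, and the RFC complex loads it. Of these 6 genes, 4 were lower in the PGCs, against 18.5% of all genes, with a median of -1.16. PCNA (chr22:479245-482505) was at 154, 143 and 165 CPM in the PGCs and 679, 612 and 487 CPM in the blastoderms (log2 fold change -1.94, SE 0.17, adjusted p = 1.2e-06). RFC3, a small subunit of the loader (chr1:175226091-175239903), was at 56.3, 46.4 and 55.0 CPM against 245, 231 and 147 CPM (log2 fold change -1.98, SE 0.19, adjusted p = 2.44e-06). The large subunit RFC1 and the small subunit RFC4 each had a log2 fold change of -1.16, and neither was called with library size alone. In all 4 the PGC values lay below the blastoderm values without overlap, against 30.3% of all genes. The 4 were called genes, of which 9318 of 9500 did not overlap. RFC5, another small subunit of the same loader, was at 73.2, 77.4 and 76.2 CPM against 41.1, 40.7 and 42.0 CPM, higher in every PGC library but under the 2-fold limit (log2 fold change 0.87, SE 0.13, adjusted p = 0.000138).

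The replicative polymerases and RPA, the protein that coats single-stranded DNA, also held calls in both directions. POLD3, a subunit of polymerase delta, was lower (log2 fold change -1.44, SE 0.14, adjusted p = 3.21e-06). POLE4, a small subunit of polymerase epsilon, was at 9.42, 9.58 and 8.31 CPM in the PGCs and 2.35, 2.81 and 2.00 CPM in the blastoderms (log2 fold change 1.93, SE 0.24, adjusted p = 2.35e-05). POLE, which carries the catalytic site of the same polymerase, was at 37.2, 40.1 and 35.1 CPM against 48.9, 52.6 and 77.2 CPM and was not called (log2 fold change -0.67). The other subunits POLE2 and POLE3 were at -0.0043 and -0.20, so POLE4 was the only called gene of its polymerase. Of the RPA trimer, RPA3 (log2 fold change -1.42, SE 0.16, adjusted p = 9.87e-06) and RPA2 (-1.18) were lower, and RPA1 was at -0.58 without a call.

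Nucleotide excision repair cuts out bulky lesions such as those made by ultraviolet light. Of the 12 damage recognition genes, 0 were called by the edgeR quasi-likelihood test, by the likelihood ratio test or by DESeq2, against 41.9% of all genes, and 6 of them had an unadjusted p under 0.05. Their log2 fold changes ran from -0.997 for ERCC6, which acts at stalled RNA polymerase, to 0.82 for CUL4A, the scaffold of a ubiquitin ligase. The same 6 of the 12 passed at adjusted p alone, against 54.7% of all genes. ERCC6 was called in 7 of 17 alternative fits, among them the fit without EGK.X replicate 3 (-1.16). XPA, which verifies the lesion (chrZ:70935594-70942308), was at 154, 152 and 153 CPM in the PGCs and 299.7, 380.5 and 87.1 CPM in the blastoderms. It was not called with all libraries (log2 fold change -0.74) and was lower without EGK.X replicate 3 (-1.15, adjusted p = 0.000634).

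The opening and cutting steps come next, by TFIIH and the nucleases. Of 10 genes, 3 were lower, against 18.5% of all genes. GTF2H2, a core subunit of TFIIH on the Z sex chromosome (chrZ:73221628-73232634), was at 31.2, 29.8 and 33.2 CPM in the PGCs and 87.6, 83.8 and 78.4 CPM in the blastoderms (log2 fold change -1.41, SE 0.14, adjusted p = 4.01e-06). ERCC4, the nuclease subunit that cuts on the 5′ side, and GTF2H1, another TFIIH subunit, had log2 fold changes of -1.14 and -1.07. With library size alone neither passed 2-fold, and without EGK.X replicate 3 the same held for GTF2H1 (-0.97). The entry NMNAT1, counted among the 10, carries the description of another gene, MNAT1. Its listed position is on chromosome 21, whereas the reference record of MNAT1 is on chromosome 5. The counted gene may therefore not belong to this group, and it was not called (log2 fold change -0.12).

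Mismatch repair corrects errors of replication. All 7 genes of recognition and excision had a fitted change below 0, as did 10847 of all 22698 genes. Of these 7, EXO1 alone was called, against 41.9% of all genes. The study's pathway also holds genes shared with replication, such as PCNA. Of its 19 genes, 8 were lower in the PGCs and 0 higher, against 18.5% and 23.4% of all genes, with a median of -0.84. EXO1, the exonuclease that removes the faulty strand (chr3:35824198-35839291), was at 41.7, 40.7 and 40.1 CPM against 141, 117 and 148 CPM (log2 fold change -1.73, SE 0.19, adjusted p = 1.03e-05). The recognition genes MSH3 and MSH6 had log2 fold changes of -0.26 and -0.69. PMS2, part of the endonuclease that follows them, was at -0.89. In 5 of the 7 genes the PGC values lay below the blastoderm values without overlap, against 30.3% of all genes.

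Non-homologous end joining, which ties broken ends together without a template, moved both ways. LIG4, the ligase, XRCC4, its partner, and NHEJ1, the bridging factor also known as XLF, form the sealing complex. XRCC4 (chrZ:62992672-63173370) was at 30.1, 30.0 and 39.7 CPM in the PGCs and 6.41, 5.93 and 7.39 CPM in the blastoderms (log2 fold change 2.34, SE 0.26, adjusted p = 8.64e-06). NHEJ1 (chr7:22266262-22298170) was at 4.81, 5.26 and 5.30 CPM against 0.273, 0.457 and 1.04 CPM (log2 fold change 3.11, SE 0.45, adjusted p = 8.7e-05). Both were higher in every PGC library. LIG4 (chr1:141655789-141659420) was lower in every PGC library, at 12.2, 11.4 and 12.2 CPM against 49.4, 45.1 and 36.2 CPM (log2 fold change -1.87, SE 0.18, adjusted p = 2.62e-06). Without EGK.X replicate 3, which lay over 2-fold above the other blastoderms, the log2 fold change of NHEJ1 was 3.80. The other 5 of the 8 genes grouped here were not called, among them the KU subunits XRCC5 (0.13) and XRCC6 (-0.37) and the kinase PRKDC (0.43). Of the 10 genes in the study's pathway, 2 were higher and 1 lower, against 23.4% and 18.5% of all genes. DNTT, which adds bases at broken ends without a template, was low in both groups, at 0.683, 0.405 and 0.564 CPM and 1.52, 1.18 and 0.808 CPM (log2 fold change -1.07, adjusted p = 0.0694). It was called lower in 6 of 17 alternative fits, among them the likelihood ratio test and DESeq2. The fit without EGK.X replicate 3 was another of them (-1.27, adjusted p = 0.0294).

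Breaks are sensed by the MRE11 complex and the kinases ATM and ATR. ATM (chr1:181590958-181650668) was at 129, 125 and 136 CPM in the PGCs and 43.5, 42.2 and 67.4 CPM in the blastoderms (log2 fold change 1.35, SE 0.18, adjusted p = 3.68e-05). ATR, the kinase for stalled forks, was at 0.17 on the log2 scale (adjusted p = 0.425). MRE11, NBN and RAD50, which make up the sensor, were at -0.77, -0.63 and -0.25, and none of them was called. TOPBP1, an activator of ATR, sat at the threshold (log2 fold change -1.003, SE 0.16, adjusted p = 0.000158), and 5 of 17 alternative fits left it uncalled, among them the fit without EGK.X replicate 3 (-0.80).

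Among the BRCA1 complexes, 2 of 8 genes were lower, against 18.5% of all genes. FAM175A, the scaffold of the BRCA1-A complex (chr4:46465724-46472824), was at 13.6, 10.4 and 14.7 CPM in the PGCs and 72.8, 66.0 and 51.7 CPM in the blastoderms (log2 fold change -2.30, SE 0.19, adjusted p = 9.36e-07). BARD1, the partner with which BRCA1 forms a ubiquitin ligase, was lower too (log2 fold change -1.38, SE 0.18, adjusted p = 4.03e-05). BRCA1 itself was at 224, 208 and 218 CPM against 321, 259.8 and 361 CPM and did not reach 2-fold (log2 fold change -0.54). The partner and the scaffold thus changed by more than BRCA1 did in these libraries, with no test of that difference.

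Homologous recombination repairs a break from a matching sequence. Of the 12 strand exchange genes, 1 was higher in the PGCs and 1 lower, against 23.4% and 18.5% of all genes. The higher one was RAD51B, a paralog that assists strand exchange (chr5:28602721-28945763), at 25.9, 23.0 and 21.9 CPM in the PGCs and 5.73, 6.51 and 9.69 CPM in the blastoderms (log2 fold change 1.69, SE 0.23, adjusted p = 6.06e-05), and the groups did not overlap. BRCA2, which works at the same step, was at 172, 154 and 172 CPM against 160.2, 147 and 133 CPM, with a log2 fold change of 0.17 and no call. In joint molecule processing, the helicase BLM (-1.07) and the topoisomerase TOP3B (log2 fold change -1.15, SE 0.14, adjusted p = 1.94e-05) were lower, but neither passed with library size alone, nor BLM without EGK.X replicate 3 (-0.93).

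The 2 meiotic genes were at low levels in all 6 libraries, and 1 was higher in the PGCs, against 23.4% of all genes. SYCP3 was at 5.26, 5.61 and 4.68 CPM in the PGCs and 1.74, 1.63 and 2.51 CPM in the blastoderms (log2 fold change 1.40, SE 0.28, adjusted p = 0.00107). The groups did not overlap, yet the CEFs had a mean of 2.51 CPM, close to the blastoderms. DMC1, the strand-exchange protein of meiosis, gave 35, 13 and 22 counts against 20, 9 and 8 counts and was not called (log2 fold change 1.17, SE 0.54, adjusted p = 0.0859).

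**Figure D4:**
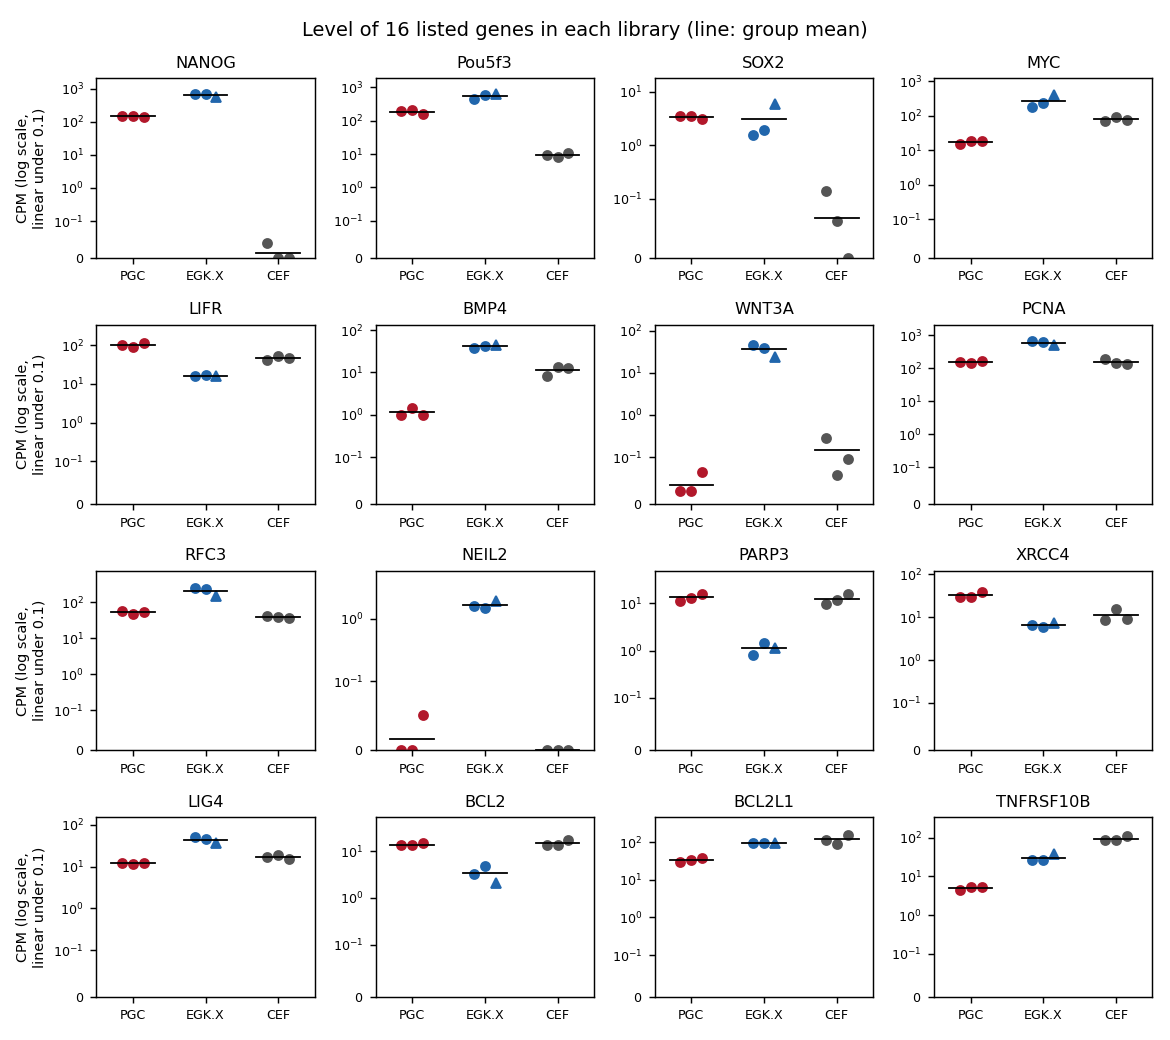
The level of 16 listed genes in each library is plotted in CPM (vertical axis, log scale, linear under 0.1), with PGCs in red, EGK.X blastoderms in blue and CEFs in grey, 1 point per library, a triangle for EGK.X replicate 3 and a line at each group's mean. The PGC and blastoderm points do not overlap except for SOX2, whose blastoderm values span 1.53 to 5.95 CPM around the PGC values of 3.14 to 3.59 CPM.

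Apoptosis genes moved in both directions. Of 22 genes, 3 were higher in the PGCs and 7 lower, against 23.4% and 18.5% of all genes, with a median of -0.44. The groups did not overlap in 17 of them, against 63.7% of all genes. The PGC values lay below the blastoderm values in 12 and above them in 5, against 30.3% and 33.4% of all genes. The 3 higher genes were an adaptor, the initiator of the mitochondrial pathway and an inhibitor of cell death. At adjusted p alone, 15 of the 22 genes passed, against 54.7% of all genes.

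Death receptors at the cell surface start the extrinsic pathway, and all 3 measured were lower in the PGCs, against 18.5% of all genes. TNFRSF10B, a receptor for TRAIL (chr22:1415487-1422100), was at 4.41, 5.26 and 5.33 CPM in the PGCs and 25.7, 26.3 and 37.2 CPM in the blastoderms (log2 fold change -2.57, SE 0.19, adjusted p = 3.21e-07), and at a mean of 95.2 CPM in the CEFs. FAS, the receptor for FAS ligand, was at 1.095, 0.944 and 1.06 CPM against 2.82, 2.47 and 2.60 CPM (log2 fold change -1.34, SE 0.21, adjusted p = 0.000145). TNFRSF1A, a receptor for tumour necrosis factor, was at 10.4, 9.93 and 12.01 CPM against 26.5, 31.7 and 10.5 CPM (log2 fold change -1.09, SE 0.31, adjusted p = 0.0103). Its groups overlapped, since EGK.X replicate 3 was at the level of the PGCs. Without that library the log2 fold change was -1.43 (edgeR adjusted p = 1.08e-05), and without replicate 1 or 2 of the blastoderms the gene was not called. The CEFs had means of 24.5 CPM for FAS and 65.0 CPM for TNFRSF1A, above both other groups. TRADD, an adaptor that binds the receptor TNFRSF1A inside the cell (chr11:2445774-2456359), was higher, at 5.13, 5.77 and 5.54 CPM against 1.21, 1.55 and 0.925 CPM (log2 fold change 2.15, SE 0.27, adjusted p = 2.79e-05). FADD, the adaptor that recruits caspase-8, was not called (-0.32).

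Caspases are the proteases that carry out apoptosis. CASP8, the initiator behind the death receptors, was at 18.2, 16.9 and 19.1 CPM in the PGCs and 44.4, 40.9 and 55.1 CPM in the blastoderms (log2 fold change -1.37, SE 0.16, adjusted p = 1.18e-05). CASP9, the initiator of the mitochondrial pathway, was at 13.2, 13.8 and 13.5 CPM against 4.94, 5.68 and 4.61 CPM (log2 fold change 1.41, SE 0.20, adjusted p = 5.85e-05). The initiators of the extrinsic and the intrinsic pathway therefore lay on opposite sides. APAF1, which assembles the platform that activates caspase-9, was at 0.71, and CYCS, the cytochrome c that triggers it, at 0.43. Both passed the adjusted p without reaching 2-fold.

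The BCL2 family decides whether mitochondria release cytochrome c. BCL2, an inhibitor of death (chr2:67837316-67924872), was at 13.5, 13.2 and 14.5 CPM in the PGCs and 3.21, 4.71 and 2.07 CPM in the blastoderms (log2 fold change 2.04, SE 0.28, adjusted p = 5.93e-05). BCL2L1, which encodes the related inhibitor BCL-XL (chr20:10015064-10033228), was at 30.3, 33.8 and 37.4 CPM against 98.3, 94.9 and 97.2 CPM (log2 fold change -1.52, SE 0.18, adjusted p = 1.78e-05). The PGCs thus held more RNA of one inhibitor and less of the other than the blastoderms. The CEFs had means of 14.9 CPM for BCL2 and 119 CPM for BCL2L1. The low group of the 3 was the blastoderms for BCL2 and the PGCs for BCL2L1. BCL2L11, the activator BIM, was at 2.08, 1.78 and 1.69 CPM against 2.85, 3.80 and 6.61 CPM (log2 fold change -1.25, SE 0.38, adjusted p = 0.0146), and was not called without EGK.X replicate 3 (-0.84) or PGC replicate 3. BID, which links the caspase-8 arm to mitochondria, was just under 2-fold (log2 fold change -0.98, SE 0.13, adjusted p = 3.3e-05). It was called lower in 7 of 17 alternative fits, among them the fit without EGK.X replicate 3, at -1.01. The effector BAK1 was at -0.40. Of the 4 stress kinases, 0 were called by the edgeR quasi-likelihood test, against 41.9% of all genes, or by the likelihood ratio test or DESeq2. Of these kinases, 2 had an unadjusted p under 0.05 and 1 passed at adjusted p alone, against 54.7% of all genes. MAP3K5, which relays oxidative stress, was at 0.04 (SE 0.15).

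Pluripotency genes held the largest fall of the 3 lists, that of WNT3A. Of 25 genes, 8 were lower in the PGCs and 3 higher, against 18.5% and 23.4% of all genes, with a median of -0.75. Of the core factors, 3 of 5 were lower. NANOG (log2 fold change -2.14, SE 0.17, adjusted p = 4.51e-07) was 4.40-fold lower and Pou5f3 (log2 fold change -1.56, SE 0.17, adjusted p = 6.27e-06) 2.96-fold lower, at the levels given above, while both stayed above their CEF levels in every PGC library. MYC, a driver of growth and division (chr2:139734098-139738744), was at 15.0, 17.8 and 18.3 CPM in the PGCs, 179, 239 and 396 CPM in the blastoderms and a mean of 80.5 CPM in the CEFs (log2 fold change -3.99, SE 0.27, adjusted p = 1.48e-07). The PGCs were thus the low group of the 3 for MYC, 15.9-fold below the blastoderms. SOX2, a partner of the OCT4 family (chr9:17025522-17026706), was at 3.51, 3.59 and 3.14 CPM against 1.53, 1.93 and 5.95 CPM, with overlapping groups (log2 fold change 0.12, SE 0.55, adjusted p = 0.876). Without EGK.X replicate 3 its log2 fold change was 0.98 (adjusted p = 0.086), and without replicate 1 or 2 of the blastoderms it was -0.20 or -0.15. KLF4, a zinc finger factor of the same network, was at -0.79 without a call.

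Signalling genes moved in both directions. LIFR, the receptor for leukaemia inhibitory factor (chrZ:12007437-12057034), was at 103, 88.1 and 113 CPM in the PGCs and 16.1, 16.7 and 16.2 CPM in the blastoderms (log2 fold change 2.63, SE 0.15, adjusted p = 4e-08). It was 6.21-fold higher, with a mean of 46.8 CPM in the CEFs. STAT3, the transcription factor downstream, was lower, at 92.4, 99.3 and 91.1 CPM against 237, 271 and 139 CPM (log2 fold change -1.20, SE 0.21, adjusted p = 0.00039). The kinase JAK1 between them was just short of 2-fold (log2 fold change -0.98, SE 0.13, adjusted p = 5.41e-05). JAK1 was called lower in 5 of 17 alternative fits, among them the fit without EGK.X replicate 3, at -1.10. The receptor and its downstream factor therefore moved in opposite directions.

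WNT3A and BMP4, secreted ligands that pattern the early embryo, were far lower in the PGCs. WNT3A (chr2:2551903-2634749) gave 3006, 2752 and 1599 counts in the blastoderms and 2, 1 and 4 counts in the PGCs (edgeR adjusted p = 3.1e-08). From the pooled counts it was 845-fold lower (95% exact interval 410 to 2103). The interval covers counting error only, not the spread between replicates, which were at 45.6, 38.1 and 23.5 CPM in the blastoderms. BMP4 (chr5:58714564-58717395) was at 37.8, 43.1 and 44.4 CPM in the blastoderms and 0.981, 1.43 and 1.01 CPM in the PGCs, 37.0-fold lower (log2 fold change -5.21, SE 0.27, adjusted p = 1.84e-08). The CEFs had means of 0.146 CPM for WNT3A and 11.3 CPM for BMP4. Their receptors FZD7, for WNT, and BMPR1A, for BMP, were lower by less, at 58.7, 59.8 and 57.0 CPM against 207, 201 and 112 CPM (log2 fold change -1.57, SE 0.22, adjusted p = 5.8e-05) and at 45.4, 39.6 and 47.1 CPM against 139, 127 and 85.5 CPM (log2 fold change -1.41, SE 0.18, adjusted p = 2.6e-05). DVL1, which carries the WNT signal inside the cell, was higher, at 37.9, 38.6 and 39.7 CPM against 11.7, 15.3 and 9.65 CPM (log2 fold change 1.67, SE 0.19, adjusted p = 1.12e-05).

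Of the 7 FGF, IGF, MAPK and PI3K-AKT genes, 1 was higher in the PGCs and 0 were lower, against 23.4% and 18.5% of all genes. FGFR1, a receptor for fibroblast growth factors (chr22:2646153-2661037), was at 60.4, 62.9 and 50.5 CPM in the PGCs and 12.1, 19.8 and 17.7 CPM in the blastoderms (log2 fold change 1.81, SE 0.26, adjusted p = 9.13e-05). IGF1R, the receptor for insulin-like growth factors, was at 164, 156 and 149 CPM against 73.7, 77.7 and 87.4 CPM, without overlap and just under 2-fold (log2 fold change 0.97, SE 0.12, adjusted p = 2.74e-05). It was called higher in 3 of 17 alternative fits, among them the fit without EGK.X replicate 3, at 1.05. The ligand FGF2 was at -0.21 and was not called. INHBA, a subunit of activin, and IGF1 had at most 4 counts in any PGC or blastoderm library, so no fold is given for them. In the CEFs they had means of 241.1 and 8.37 CPM.

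Partner genes were also compared within each library, as log2 ratios of their counts, which do not depend on the scaling between libraries. The 9 pairs were chosen after their values were seen, each with a gene of fitted change above 0 over one below 0. The direction of the differences thus follows from that choice, and so, in large part, do their size and the lack of overlap. The ratios are a description with no test. The log2 ratio of XRCC4 to LIG4 was 1.46 ± 0.21 in the PGCs and -2.72 ± 0.37 in the blastoderms (SD, n = 3). The ratio of BCL2 to BCL2L1 was -1.30 ± 0.11 against -4.94 ± 0.61, that of CASP9 to CASP8 -0.42 ± 0.10 against -3.20 ± 0.37, and that of LIFR to STAT3 0.10 ± 0.25 against -3.67 ± 0.50. In none of the 9 pairs did the groups overlap, and the difference of the means ran from 2.58 for POLE4 to POLE up to 5.19 for NHEJ1 to LIG4. EGK.X replicate 3 lay at 1 end of the blastoderm range in all 9 pairs, and the gap between the closest PGC and blastoderm libraries was at least 2.14.

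**Figure D5:**
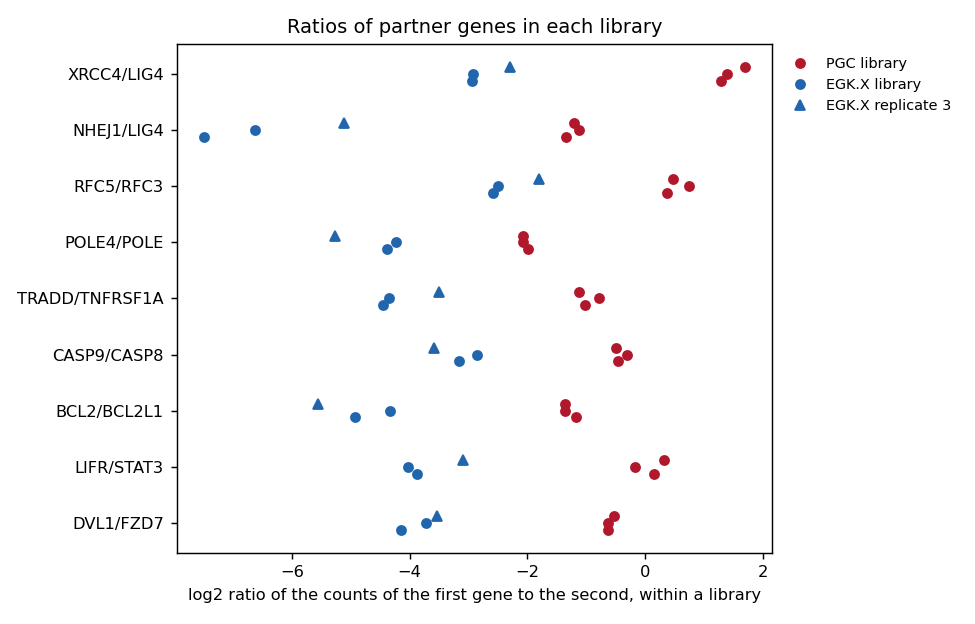
The log2 ratio of the counts of 2 partner genes within a library (horizontal axis) is plotted for 9 pairs (vertical axis), with PGC libraries in red and blastoderm libraries in blue, and a triangle for EGK.X replicate 3. Every PGC point lies to the right of every blastoderm point of its pair, and for XRCC4 to LIG4 and RFC5 to RFC3 the sign of the ratio differs between the groups.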

How the data were processed

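The deposited values are whole-number counts of reads per gene, not normalized. Per the labels and the study's methods, the authors used Trimmomatic 0.39 for trimming, FastQC 0.11.9 for read quality, HISAT2 2.2.0 for alignment to GRCg6a, SAMtools 1.10 for format conversion and HTSeq for counting on an Ensembl annotation. The strand setting and overlap mode of the counting are not given in the sources used here, which leaves the counts of overlapping and antisense genes uncertain. The deposited normalized matrix was not used here. Summary entries for unassigned records entered neither the library sizes nor the tests.

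All 9 libraries entered 1 fit in edgeR 4.0.16 (R 4.3.3) over the 22698 genes with any count, with TMM factors and a prior count of 0.125. The contrast of PGCs with EGK.X blastoderms was tested by quasi-likelihood, and p-values were adjusted by Benjamini-Hochberg over every gene tested. A gene was called, or written as higher or lower, when its adjusted p was under 0.05 and its log2 fold change beyond 1 in size. Fold changes, SEs and adjusted p are from this fit unless another is named. The SE was derived by dividing the absolute log2 fold change by the root of the F statistic. CPM use the TMM-scaled library size. Gene names, lists and coordinates came from the study's table of genes, and 0 of the count identifiers matched the reference table. CPM were not divided by gene length, so levels are compared between libraries, not between genes.

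The replicates were separate biological samples by their labels. Named were the called gene with the largest rise and fall of each role group, every called apoptosis and pluripotency gene, the defining genes NANOG, Pou5f3, SOX2, SYCP3 and DMC1, and outside the lists the 2 genes per direction with the smallest adjusted p and 100 counts or more in each library of the group with the higher level. Other genes, including those near the threshold and partners of a named gene, were named after their values were seen. Some genes named by this rule are not reported here by name, but they remain in the counts. The comparison, the lists and the role groups were chosen with earlier results of these data known. The fit was tested on simulated counts. The alternatives were the likelihood ratio test, DESeq2 1.42.0, its size factors, library size alone, upper-quartile factors, filterByExpr, the 6 libraries alone, a replicate block, the adjusted p alone, a prior count of 2, other floors, thinning, and each library left out in turn.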

Additional observations from a re-analysis of the deposited data

How the results depend on the processing

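Counts of higher and lower genes stayed within 1.5 times under every other test, scaling, filter or sample set run. They were 5791 and 4549 by the likelihood ratio test, 5232 and 4073 by DESeq2, and 5861 and 3514 with library size alone, where 62.5% of the called genes were higher in the PGCs against 55.8% with TMM factors. Leaving out each library in turn gave 4650 to 5380 higher and 3831 to 4284 lower genes. The deviations of same-numbered PGC and blastoderm libraries correlated at -0.03, -0.01 and -0.04, and those of differently numbered ones at -0.03 to 0.06. With 3 libraries per group, these values cannot decide whether the replicate numbers pair the samples. With the number as a block, 4994 genes were higher and 3911 lower.

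In the DNA repair list, library size alone gave 11 higher and 14 lower genes. Without the fold threshold, the adjusted p alone gave 17 higher and 47 lower DNA repair genes, 5 higher and 10 lower apoptosis genes, and 5 higher and 13 lower pluripotency genes, against 28.2% higher and 26.5% lower over all genes. Thinned to the smallest total, 811 genes in place of 498 were counted in the PGCs and at the floor in the blastoderms. SOX2 changed sign to -0.20 without EGK.X replicate 1 and to -0.15 without EGK.X replicate 2. Without EGK.X replicate 3 it was 0.98. The cause was not tested. Of the listed genes called, the 13 higher ones were called in all 17 fits, and 27 of the 38 lower ones were.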

Other observations

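Of the listed genes, 11 lie on the Z chromosome, of which males carry a pair and females a single copy. In the PGCs 2 of them were higher, LIFR and XRCC4, and 1 lower, GTF2H2, against 23.4% and 18.5% of all genes. Their median log2 fold change was -0.34, against -0.47 for the 142 listed genes elsewhere. The sex of the pools is not given in the sources used here, and its part in these values was not tested.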
